A study of Arabidopsis thaliana with 8 samples.

Results

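The beta-amylases BAM1 to BAM9 are the 9 genes of one enzyme family of Arabidopsis thaliana, and they were taken by locus from the 30361 features measured, 1 feature per locus. All 9 had a feature, and none was left out by a filter on low values. The members are the whole family by name, but the family was chosen by values of these arrays, the levels of its genes in DGTT2 against WT. The differences between genotypes below are therefore a description of the members, and the counts of members called in the fit across all features are printed beside the share of all features called, with nothing read from them. The plants were 6 weeks old and had been kept on soil at 22 C under days of 16 h and nights of 8 h. RNA was taken from leaves of line 57, which carries the Chlamydomonas transgene DGTT2, and of the wild type (WT), with 4 independent biological samples of each. DGTT2 is an algal diacylglycerol acyltransferase of type 2. Diacylglycerol acyltransferases add the last fatty acid in the making of triacylglycerol. Since every DGTT2 sample came from this 1 line, the transgene and any other feature of the line cannot be told apart. The promoter that drives the transgene is not given in the sources used here.

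Beta-amylases cut maltose units from the ends of starch chains. In leaves, starch is built up in chloroplasts by day and broken down at night, and most of it leaves the chloroplast as maltose. BAM1, BAM2, BAM3 and BAM6 are catalytic enzymes of the plastid, and BAM4 and BAM9 are plastid proteins with no known catalytic activity. BAM5 lies outside the plastid, is found mainly in phloem, and is known as the gene of the bulk of extractable beta-amylase activity and as sugar-inducible. BAM7 and BAM8 are nuclear proteins in which an amylase-like part is joined to a DNA-binding domain of the BZR1 type. The locus identifiers are AT3G23920 (BAM1), AT4G00490 (BAM2), AT4G17090 (BAM3, listed as CT-BMY in the RefSeq table), AT5G55700 (BAM4), AT4G15210 (BAM5), AT2G32290 (BAM6), AT2G45880 (BAM7), AT5G45300 (BAM8, listed as BMY2) and AT5G18670 (BAM9, listed as BMY3). All 9 are protein-coding.

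Each RNA sample was hybridised to 1 one-colour array, and the deposited values are log2 expression levels, on which a difference of 1 is a factor of 2. The 8 arrays correlated with each other at 0.988 to 0.995 across features. Each of the 2 slides held 2 DGTT2 and 2 WT arrays, and DGTT2 arrays took positions 3 and 4 and WT arrays positions 1 and 2 on both, so genotype cannot be told apart from place on the slide. The 5 mesophyll markers had list means of 15.76 to 15.91 on DGTT2 arrays and 15.84 to 15.90 on WT arrays, near the top of the scale. The 5 markers of root, seed and flower had list means of 6.43 to 7.24 on DGTT2 arrays and 6.59 to 7.19 on WT arrays. Between the genotypes 0 were called at an adjusted p under 0.05 (limma), where 0.0725% of all features were. At an unadjusted p under 0.05 (limma) 1 passed, higher in DGTT2, where 10.5% of all features passed either way. The flower marker PI ran from 6.11 to 6.81 in DGTT2 and from 5.56 to 6.30 in WT. Of the 5 markers, PYK10, a marker of root and seedling, varied most between arrays, at 9.74 ± 1.33 in DGTT2 and 10.40 ± 1.18 in WT (SD, n = 4 each). The features are of Arabidopsis genes, and the mRNA of the algal transgene was not measured, so it gave no check of the labels. The probes behind each feature were not used here, so signal from one family member on the probes of another was not tested. Levels of the members are not compared with each other, and the place of any gene on the scale is only a rough guide. In leaf samples, fewer cells of a type and less RNA per cell cannot be told apart.

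BAM5 was the beta-amylase that differed most between the genotypes. Its log2 level was 9.99, 10.21, 10.23 and 9.13 in DGTT2 replicates 1 to 4, against 8.38, 8.26, 8.66 and 8.19 in WT replicates 1 to 4. The genotypes did not overlap, and the lowest DGTT2 array, replicate 4, lay 0.47 above the highest WT array, replicate 3. The means were 9.89 ± 0.52 in DGTT2 and 8.37 ± 0.21 in WT (SD, n = 4 each), a difference of 1.52 on the log2 scale (SE 0.24 from limma) or 2.87-fold. Of all features, 19 had a larger positive difference and 28 (0.0922%) a larger difference in either direction. This rank is a description, as the family was chosen on this contrast, and it takes no account of spread. The difference of BAM5 was 1.45 on slide 2 and 1.59 on slide 1. Leaving out single arrays moved it between 1.41, without DGTT2 replicate 3, and 1.77, without DGTT2 replicate 4. BAM5 also varied more within genotypes than any other member, with a pooled SD of 0.39, above that of 88.0% of all features. Its background on the array was not measured.

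**Figure D1:**
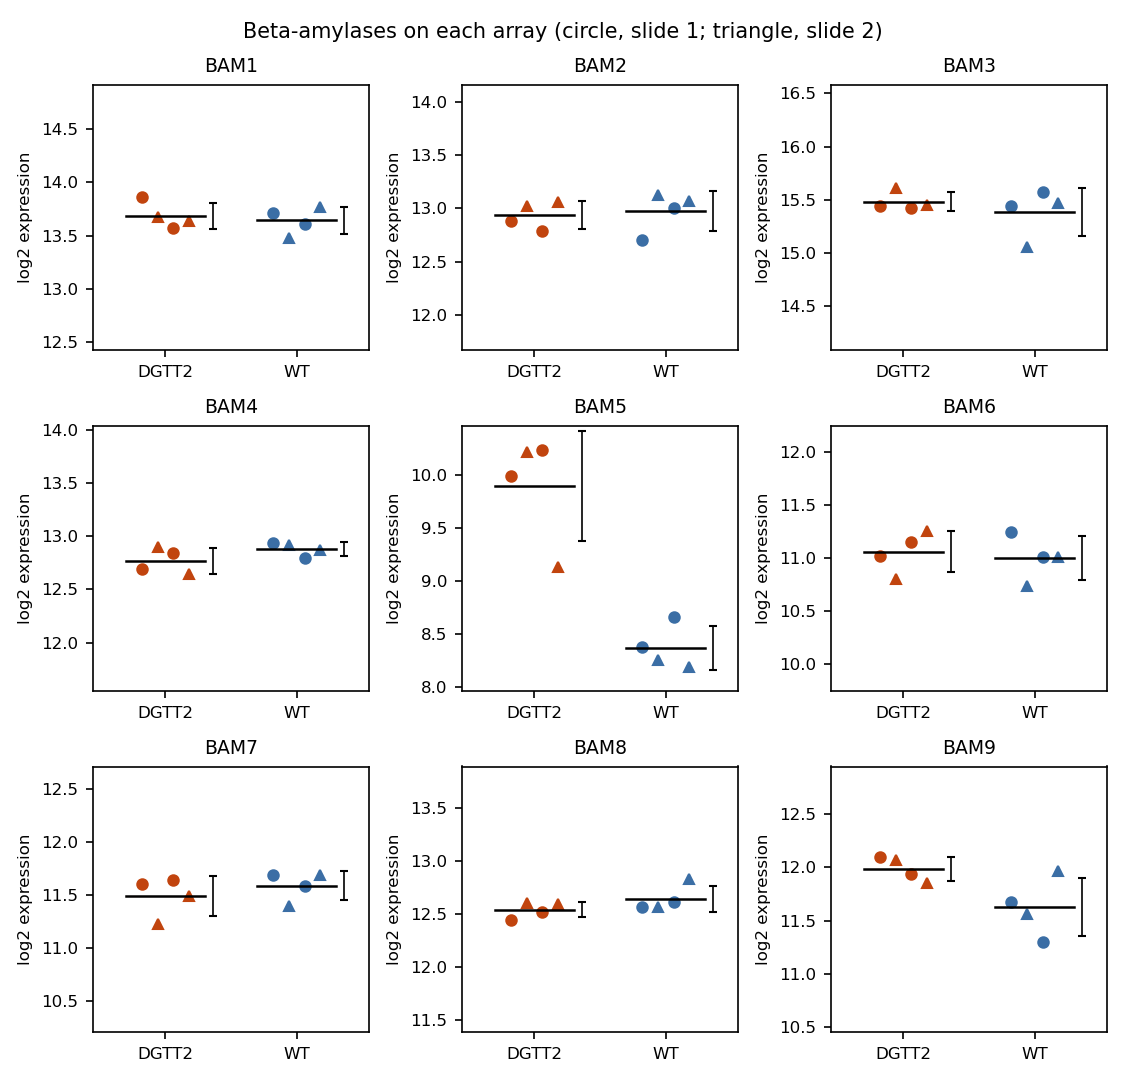
Log2 expression of each beta-amylase on the 8 arrays, with DGTT2 left of WT, replicates 1 to 4 from left to right within a genotype, horizontal lines at the mean and error bars of 1 SD (n = 4). Every panel spans the same range of log2 units, and only in BAM5 do all DGTT2 arrays (9.13 to 10.23) lie above all WT arrays (8.19 to 8.66).

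Of the catalytic plastid enzymes, all 4 had overlapping arrays in the genotypes. BAM3, the main beta-amylase of starch breakdown at night in mesophyll cells, was at 15.44, 15.61, 15.43 and 15.45 in DGTT2 replicates 1 to 4, against 15.44, 15.06, 15.58 and 15.47 in WT replicates 1 to 4. WT replicate 2 was the lowest of the 8 and DGTT2 replicate 2 the highest. The difference in means was 0.10, with 0.27 on slide 2 and -0.07 on slide 1, and without WT replicate 2 it was -0.01. BAM3 lay near the top of the scale, where 805 features had a mean over 15 and values may be compressed, which was not measured. BAM1, a plastid enzyme known from guard cells and from stress, was at 13.86, 13.68, 13.57 and 13.63 in DGTT2, against 13.71, 13.48, 13.61 and 13.77 in WT. The lowest and the second highest of its 8 values were both from WT, and the difference in means was 0.04. BAM2, a plastid enzyme with no known role in leaf starch loss, averaged 12.94 ± 0.13 in DGTT2 and 12.98 ± 0.19 in WT (SD, n = 4 each). BAM6, which is less studied, ran from 10.81 to 11.26 in DGTT2 and from 10.73 to 11.25 in WT, with a difference of 0.06.

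The plastid proteins without known catalytic activity had means on opposite sides of WT. BAM9 was at 12.10, 12.07, 11.94 and 11.85 in DGTT2 replicates 1 to 4, against 11.67, 11.56, 11.30 and 11.97 in WT replicates 1 to 4. A single WT array, replicate 4, lay within the DGTT2 range, and the other WT arrays lay below all DGTT2 arrays. The means were 11.99 ± 0.11 in DGTT2 and 11.63 ± 0.27 in WT (SD, n = 4 each), a difference of 0.36 (SE 0.14 from limma) or 1.29-fold. It was 0.19 on slide 2 and 0.53 on slide 1, and ran from 0.25 without WT replicate 3 to 0.48 without WT replicate 4. BAM4, a protein needed for normal starch loss at night, ran from 12.64 to 12.90 in DGTT2 and from 12.79 to 12.94 in WT. Its difference was -0.11, with -0.12 on slide 2 and -0.10 on slide 1.

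The nuclear members BAM7 and BAM8, known as transcription factors of growth and development, had slightly lower means in DGTT2. BAM7 ran from 11.23 to 11.64 in DGTT2 and from 11.40 to 11.69 in WT, with a difference of -0.10. This was -0.18 on slide 2 and -0.01 on slide 1. BAM8 ran from 12.45 to 12.60 in DGTT2 and from 12.57 to 12.82 in WT, with a difference of -0.10, which was -0.04 without WT replicate 4, its highest array. The other 6 genes of the BZR1 family, which carry the same type of DNA-binding domain, differed by between -0.09 and 0.09. None of them was called after adjustment, where 0.0725% of all features were. At an unadjusted p under 0.05 (limma), 0 passed, against 10.5% of all features. BZR1 and BES1, the main regulators of the response to brassinosteroid hormones, were at -0.05 and -0.01. Their relatives BEH1, BEH2, BEH3 and BEH4 were at 0.09, 0.08, -0.09 and -0.07.

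Over the whole family, the mean of 5 members was higher in DGTT2 and that of 4 was lower, with a median difference of 0.04, against -0.001 over all features. Apart from BAM5 and BAM9, the other 7 members lay between 0.926-fold and 1.07-fold. In the fit across all features 0 of 9 members were called at an adjusted p under 0.05 (limma, Benjamini-Hochberg), where 0.0725% of all features were called. At an unadjusted p under 0.05 there were 2, BAM5 and BAM9, both higher, where 4.56% of all features were higher and 10.5% differed either way. With slide as a fixed block the count at the adjusted threshold was 1, BAM5, where 0.227% of all features were called. Arrays of the genotypes did not overlap in 1 of 9 members and in 5.64% of all features. Since the family was proposed on this contrast, these counts are given as description.

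Differences between the slides were a measure that the choice of the family did not use. BAM2 was the member with the smallest p. On slide 2 it was at 13.03 and 13.06 in DGTT2 and 13.13 and 13.07 in WT, and on slide 1 it was at 12.88 and 12.78 in DGTT2 and 12.70 and 13.00 in WT. All slide 2 arrays lay above all slide 1 arrays, and arrays of the slides lay apart, in one direction or the other, in 3.87% of all features. The difference of slide 2 minus slide 1 was 0.23 (95% interval 0.001 to 0.46), and it did not pass over all features (adjusted p = 0.533, limma). In all, 0 of 9 members and 0% of all features were called between the slides at an adjusted p under 0.05. At an unadjusted p under 0.05 there was 1 member, where 9.31% of all features passed. BAM5 was at 8.95 on slide 2 and 9.32 on slide 1, a difference of -0.37 (95% interval -0.86 to 0.12).

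The genotype difference itself was also compared between the slides. The term for this interaction was called in 0 of 9 members and in 0% of all features, and at an unadjusted p under 0.05 in 0 members and 2.33% of all features. For BAM5 the interaction, taken as the difference on slide 2 minus that on slide 1, was -0.15 (95% interval -1.21 to 0.92). For BAM3 the interaction was 0.34 (95% interval -0.25 to 0.93) and for BAM9 -0.34 (-1.01 to 0.34). With 2 arrays of each genotype per slide these intervals are wide, and they do not show that the slides gave equal differences.

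**Figure D2:**
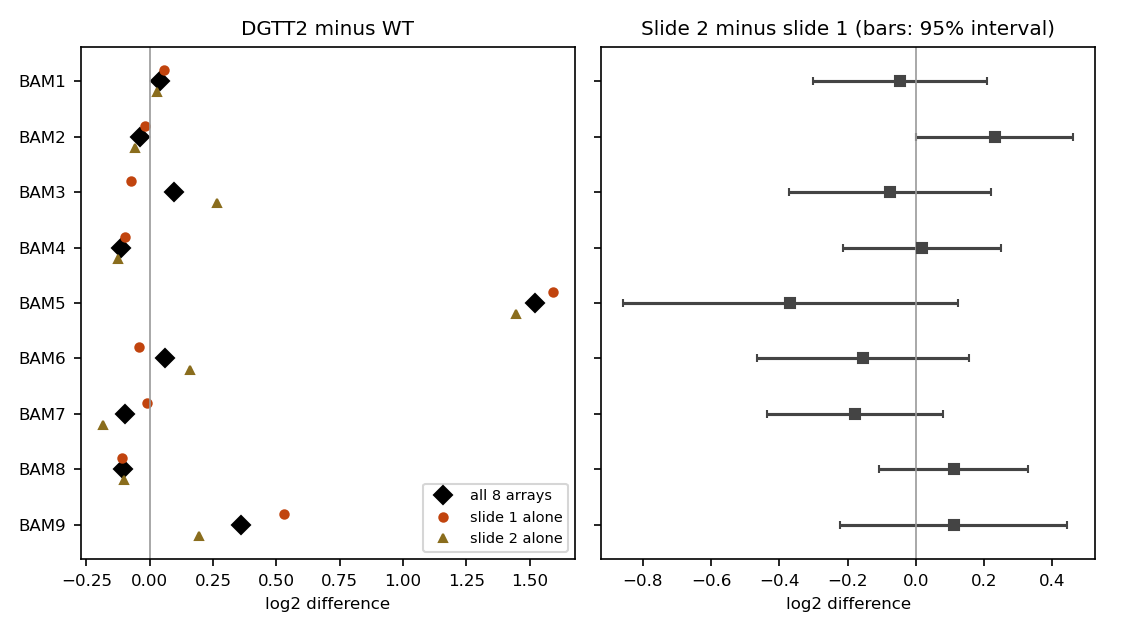
Log2 difference of each beta-amylase, left for DGTT2 minus WT over all arrays (diamonds), slide 1 (circles) and slide 2 (triangles), and right for slide 2 minus slide 1 with 95% intervals from limma. BAM5 stands at 1.52 between genotypes with like values on both slides, and over all arrays the other 8 members lie between -0.11 and 0.36. On single slides those 8 run from -0.18 (BAM7, slide 2) to 0.53 (BAM9, slide 1).

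Of the 18 other genes of starch breakdown, 0 were higher and 0 lower after adjustment (limma), where 0.0725% of all features were called. At an unadjusted p under 0.05 (limma), 1 was higher and 0 lower. Of all features, 4.56% were higher at that threshold and 10.5% differed either way. The median difference of the 18 was 0.02, with 13 means higher in DGTT2 and 5 lower, and 17 of 18 differed by less than 0.5. The unadjusted pass was AMY2, an alpha-amylase not needed for leaf starch loss, at 11.76 ± 0.24 in DGTT2 and 11.47 ± 0.09 in WT (SD, n = 4 each), a difference of 0.29 (adjusted p = 0.475, limma). AMY1, an alpha-amylase exported from the cell, was at 10.92, 11.50, 11.51 and 11.72 in DGTT2 replicates 1 to 4, against 10.56, 11.82, 9.74 and 10.48 in WT replicates 1 to 4. WT replicate 2 was the highest of all 8 arrays and WT replicate 3 the lowest, so the genotypes overlapped, with a difference of 0.76 (95% interval -0.10 to 1.63; adjusted p = 0.54, limma). AMY3, the alpha-amylase of the plastid, which acts with BAM1 in guard cells and under stress, was at 0.005 (95% interval -0.20 to 0.21).

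The enzymes that act before and after the beta-amylases stood close to 0. GWD1 and PWD, the kinases that phosphorylate starch and open it to attack, differed by 0.06 (95% interval -0.23 to 0.35) and -0.12 (-0.32 to 0.08). The phosphatase SEX4 and its relatives LSF1 and LSF2 were at 0.02, 0.01 and 0.04, and the debranching enzymes ISA3 and LDA at -0.05 and 0.07. MEX1, which exports the maltose made by beta-amylases, was at 0.02 (95% interval -0.24 to 0.28), and DPE2, which uses that maltose in the cytosol, at -0.09 (-0.30 to 0.12). DPE1, the plastid glucanotransferase, was at 0.07, the phosphorylases PHS1 and PHS2 at -0.02 and 0.06, and the plastid glucose transporter GLT1 at 0.02. The last 2 members, AT1G42430 and AT3G55760, were at 0.11 and -0.10. GWD1, PWD, DPE2, PHS1, PHS2, AT3G55760 and AMY3 had means over 15 in both genotypes. Values there may be compressed, which was not measured, so differences near 0 do not show that these genes were unchanged.

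**Figure D3:**
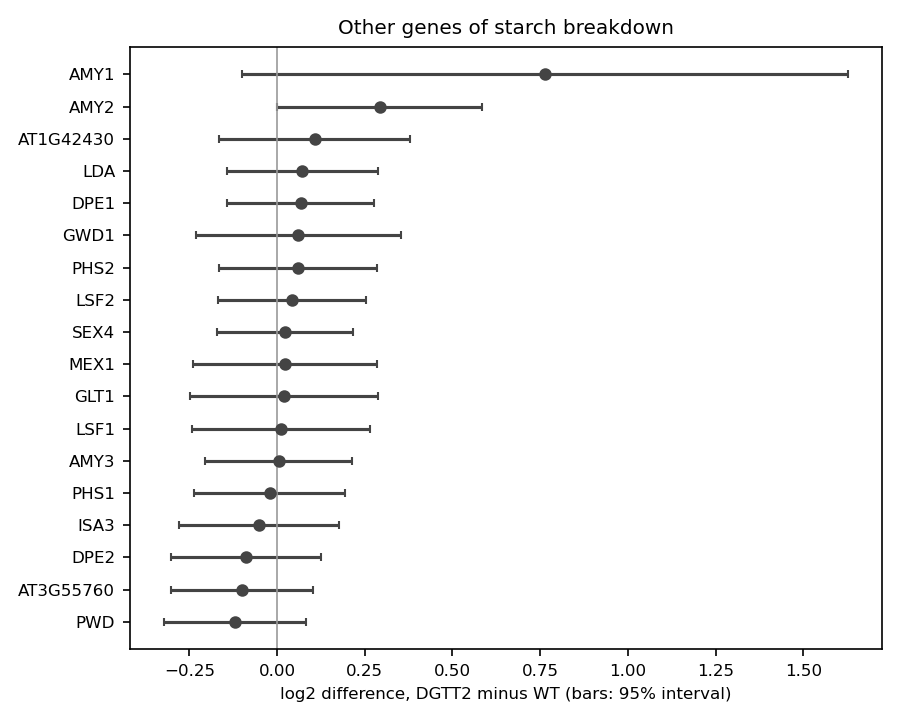
Log2 difference of DGTT2 minus WT for the 18 other genes of starch breakdown, with 95% intervals from limma, ordered by difference. All but AMY1 (0.76) lie between -0.12 and 0.29, and the interval of AMY1 is the widest.

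Markers of phloem and of guard cells were set beside BAM5 and BAM1, which are known from those cells. The 8 phloem markers had list means of 13.61 to 13.73 on DGTT2 arrays and 13.64 to 13.71 on WT arrays, with 0 members called and 0 at an unadjusted p under 0.05 (limma). Over all features the shares were 0.0725% and 10.5%. SUC2, the sucrose loader of companion cells, differed by -0.02, and SEOR1 and SEOR2, of the sieve element filaments, by -0.01 and 0.17. APL, a regulator of phloem identity, was at 0.11, CALS7 at 0.02, PP2-A1 at -0.01, and the sucrose exporters SWEET11 and SWEET12 at -0.14 and -0.16. The 7 guard cell markers had list means of 11.27 to 11.34 on DGTT2 arrays and 11.19 to 11.40 on WT arrays, and 0 were called. At an unadjusted p under 0.05 (limma) 1 passed, where 10.5% of all features passed. That marker was MYB60, a regulator of stomatal opening, at 8.80 ± 0.26 in DGTT2 and 8.23 ± 0.13 in WT (SD, n = 4 each), with no overlap (adjusted p = 0.196, limma). FAMA, which sets guard cell identity, was at -0.13 with no overlap (unadjusted p = 0.142, adjusted p = 0.639, limma). Arrays of the genotypes did not overlap in 2 of the 7 guard cell markers and in 5.64% of all features. KAT1 was at -0.17, SCAP1 at -0.12, AT1G22690 at 0.04, HT1 at -0.26 and SLAC1 at 0.07. The part of guard cells in the values of BAM1 was not tested.

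No pair of members was correlated from array to array at the adjusted threshold. Of the 36 pairs, 18 had a positive and 18 a negative Pearson correlation over the 8 arrays, from -0.61 to 0.66. At an unadjusted exact permutation p under 0.05, 0 pairs passed by Pearson's r and 1 by Spearman's rho, and 0 passed after adjustment over the 36 pairs. The pair that passed by rank was BAM3 and BAM8, with rho = 0.81 (exact permutation p = 0.0218, adjusted 0.784) and r = 0.17 (exact permutation p = 0.576, adjusted 0.948). Without WT replicate 2 and DGTT2 replicate 2, the arrays farthest from the median of BAM3, r was 0.29. The highest Pearson correlation was that of BAM6 with BAM7, at r = 0.66 (exact permutation p = 0.0776, adjusted 0.948) and rho = 0.38 (exact permutation p = 0.36, adjusted 0.977). It was 0.82 without WT replicate 2 and DGTT2 replicate 4 (exact permutation p = 0.0319, adjusted 0.914), and 0.76 on deviations from the genotype means (permutation over the 8 arrays, p = 0.0335, adjusted 0.941). Deviations sum to 0 within each genotype, so permutation over all arrays is not exact for them. BAM5 and BAM9, the members with the largest differences between genotypes, had r = 0.63 over all arrays (exact permutation p = 0.0919, adjusted 0.948), rho = 0.43 (exact permutation p = 0.299, adjusted 0.977) and r = -0.04 on deviations from the genotype means. Without DGTT2 replicates 2 and 3, the arrays farthest from the median of BAM5, their r was 0.51. The permutation mixed the genotypes, so the p-values of this pair on log2 values also take in the contrast on which the family was chosen.

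**Figure D4:**
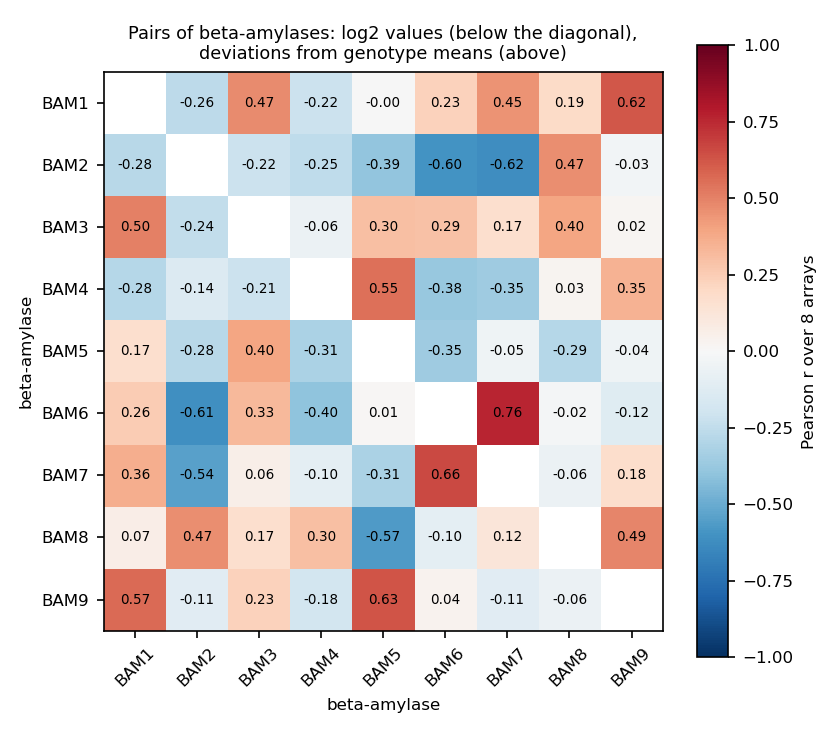
Pearson correlation of each pair of beta-amylases over the 8 arrays, from log2 values below the diagonal and from deviations from the genotype means above it. BAM5 with BAM9 is at 0.63 below the diagonal and at -0.04 above it, while BAM6 with BAM7 is at 0.66 and 0.76.

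The features whose log2 values were most like those of each beta-amylase were picked from 10354 features with a symbol by Pearson's r over the 8 arrays, which is a description only. The feature most like BAM5 was PYL6, an abscisic acid receptor, at r = 0.97 over the 8 arrays and 0.85 on deviations from the genotype means. PYL6 averaged 7.85 in DGTT2 and 6.88 in WT. The next was MES18, of the methyl esterase family, at 0.94 and, on deviations, 0.67. For BAM9 they were ARGAH2, an arginase, at 0.95, and LTL1, a lipase, also at 0.95. ARGAH2 averaged 13.92 in DGTT2 and 13.30 in WT. For BAM3 they were GH3.9 at 0.97 and EMB2219 at 0.97, for BAM1 CYP5 at 0.98 and BEE3 at 0.97, and for BAM2 PRMT6 and BETA-TIP, both at 0.99. ABI4 and EMB1586 were most like BAM4, DET2 and AT59 most like BAM6, NHX4 and HB-3 most like BAM7, and FRS3 and UCNL most like BAM8, at r between 0.94 and 0.97. BETA-TIP averaged below 5.95, the median level of pseudogenes, in both genotypes. AT59 averaged 6.21 in DGTT2 and 6.15 in WT, and ABI4 6.22 in DGTT2 and 6.75 in WT. Whether these low levels lie above background was not measured. Features with r over 0.9 numbered from 10 for BAM4 to 43 for BAM3, so an r this high did not single out a feature.

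The loci next to the family members along the chromosomes were looked up after the values of the members had been seen. Of the 18 nearest measured neighbours, 1 on each side of each member in the RefSeq table, 0 were called (limma), and their median difference was 0.001. Of all features, 0.0725% were called. At an unadjusted p under 0.05 there were 2 of 18, where 10.5% of all features passed, ROPGEF4 beside BAM7 and AT3G23930 beside BAM1. Beside BAM5 stood FH3, a formin, at 6.76 ± 0.45 in DGTT2 and 6.72 ± 0.26 in WT, and ABCG41, an ABC transporter, at 10.08 ± 0.27 in DGTT2 and 10.17 ± 0.16 in WT (SD, n = 4 each). Their differences of 0.05 and -0.10 were within the spread of the arrays. Beside BAM9 stood PCB2, of chlorophyll synthesis, at -0.06, and TLP11, a tubby-like protein, at 0.01. AT3G23930 was at 5.80 ± 0.31 in DGTT2 and 6.29 ± 0.29 in WT (SD, n = 4 each), a difference of -0.49 (adjusted p = 0.398, limma). Its DGTT2 mean lay below 5.95, the median level of pseudogenes. Whether the low levels of AT3G23930 and FH3 lie above background was not measured. The neighbour with the largest difference was ROPGEF4, at 9.50 ± 0.22 in DGTT2 and 8.87 ± 0.25 in WT (SD, n = 4 each), with no overlap (adjusted p = 0.188, limma). Arrays of the genotypes did not overlap in 1 of the 18 neighbours and in 5.64% of all features.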

How the data were processed

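The table used here holds log2 expression values that the authors deposited, 1 row for each gene model and 1 column for each array. The submitters' processing notes name RMA and Partek, without settings; the build of the annotation is not given in the sources used here. RMA brings the arrays to nearly equal distributions (medians of 10.19 to 10.28), so a shift of most genes one way would not be seen. No further normalization was applied. The fit used limma 3.58.1 under R 4.3.3 (two-sided, lmFit then eBayes), with Benjamini-Hochberg adjustment over all 30361 features. SEs and intervals are from this fit, in which eBayes draws the variance of each gene towards that of all features. Names came from RefSeq's gene table of TAIR10.1, which held 29976 of the loci. Terms were genotype; genotype and slide; or both and their interaction. Pairs of members were tested by permutation over the 8 arrays, which is not exact for deviations from the genotype means, and the fits were tested on simulated data. Other normalizations, a filter on low values, other variance priors, blocks and single arrays left out were tried as alternatives.

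The members and lists were chosen with earlier results of these data known. Named genes were all members, the 6 starch breakdown genes of smallest p, all markers and BZR1 relatives, and for each member the 2 features with a symbol most correlated with it. The other starch breakdown genes and the neighbours were named after their values were seen. Same-numbered DGTT2 and WT arrays were checked for pairing (r of their deviations 0.07, 0.20, -0.03 and -0.02), and the numbers were not taken as pairs. The number of arrays limits the precision.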

Additional observations from a re-analysis of the deposited data

Results flagged for a closer look

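BAM3 in DGTT2 replicate 2 stood apart from the other DGTT2 arrays, at 15.61, while those ran from 15.43 to 15.45, a gap of 0.889 of the range of the 4 arrays. The other 3 DGTT2 arrays spanned 0.02, and the WT arrays ran from 15.06 to 15.58. The gap passes Dixon's 95% critical value for 4 arrays, a lower mark than the gap itself, which chance passes in about 1 of 20 groups, and 18 groups, each member in each genotype, were looked at.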

How the results depend on the processing

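The count of beta-amylases called between DGTT2 and WT, 0 under the settings reported, was 1 with slide as a fixed block, 1 with eBayes set to trend and robust, and 1 without DGTT2 replicate 4, each time BAM5; the range over leaving out single arrays was 0 to 1. Over all features these 3 settings called 69, 46 and 6, in this order, against 22. With the replicate number as a block (replicate block) it was 0, and 3 of all features were called. The other counts, for starch breakdown, the BZR1 family, the slides, their interaction with genotype and the pairs, were 0 in every setting run. Over 16 other settings each, the difference of BAM5 ran from 1.41 to 1.77 and that of BAM9 from 0.19 to 0.53, and neither changed sign. Nor did BAM4, BAM7 or BAM8, while BAM1, BAM2 and BAM3 changed sign in 2 settings each and BAM6 in 3. The eBayes setting, the blocks and the filter on low values cannot change a difference in this balanced design. Since all DGTT2 arrays of BAM5 lay above all WT arrays, leaving out arrays could not change the sign of BAM5 either. The count over all features ran from 5 to 39 when single arrays were left out.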
